A study of Mus musculus with 2 samples.

Results

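Complex I of the respiratory chain, NADH:ubiquinone oxidoreductase, is built from subunits encoded in the nucleus and in mitochondrial DNA, and the nuclear subunits are described here in newborn mouse skeletal muscle. Members were the protein-coding genes whose symbol begins with Nduf, then a, b, c, s or v, then a number, which leaves out the assembly factors named Ndufaf and the acyl carrier subunit Ndufab1. This gave 37 genes of 43346 gene rows, of which 21474 were protein-coding. RNA came from skeletal muscle of postnatal day 0 mice of strain B6NCrl, a C57BL/6N line, with no genetic change or treatment given in the labels. There were 2 libraries, replicates 1 and 2 of 1 group, each made from 13 pg of total RNA by SmartSeq, in which full-length cDNA is made and amplified. Each came from an organ portion of 1 pup, the tissue records are separate but the donor entry is the same, sex was not collected, and nothing says whether the spread between libraries is technical or between animals. With 1 library against 1 no difference was tested and no p-value is given.

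The enzyme is shaped like an L. Its peripheral arm, in the mitochondrial matrix, takes electrons from NADH and passes them along a chain of iron-sulfur clusters to ubiquinone, and its membrane arm pumps protons. Core subunits carry out these steps, and accessory subunits surround them and are needed for assembly and stability. Muscle fibres depend on the enzyme for aerobic ATP supply, and its defects are a common cause of mitochondrial disease.

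All but 1 of the members were found in both libraries, and they stood among the more abundant messages of the muscle. Detection, set at a TPM of at least 1 and at least 5 expected counts, held for 36 of 37 members in both libraries, against 18.2% of all protein-coding genes and 97.7% of the genes in the members' range of mean TPM. TPM is the share of transcripts after adjustment for length, on a scale with the same sum in each library, and an expected count is an estimated number of reads. The median member stood at 347 TPM in replicate 1 and 575 in replicate 2. Among the 1000 highest protein-coding genes of each library were 32 members in replicate 1 and 34 in replicate 2. Their summed level was 14230 TPM in replicate 1 and 21714 in replicate 2, a mean of 17972 ± 5292 (SD, n = 2). This was 1.42% and 2.17% of all TPM. That total includes added spike-in RNAs, which held 9.44% of it in replicate 1 and 4.54% in replicate 2. In bulk RNA, fewer cells of a type and less RNA per cell cannot be told apart.

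**Figure D1:**
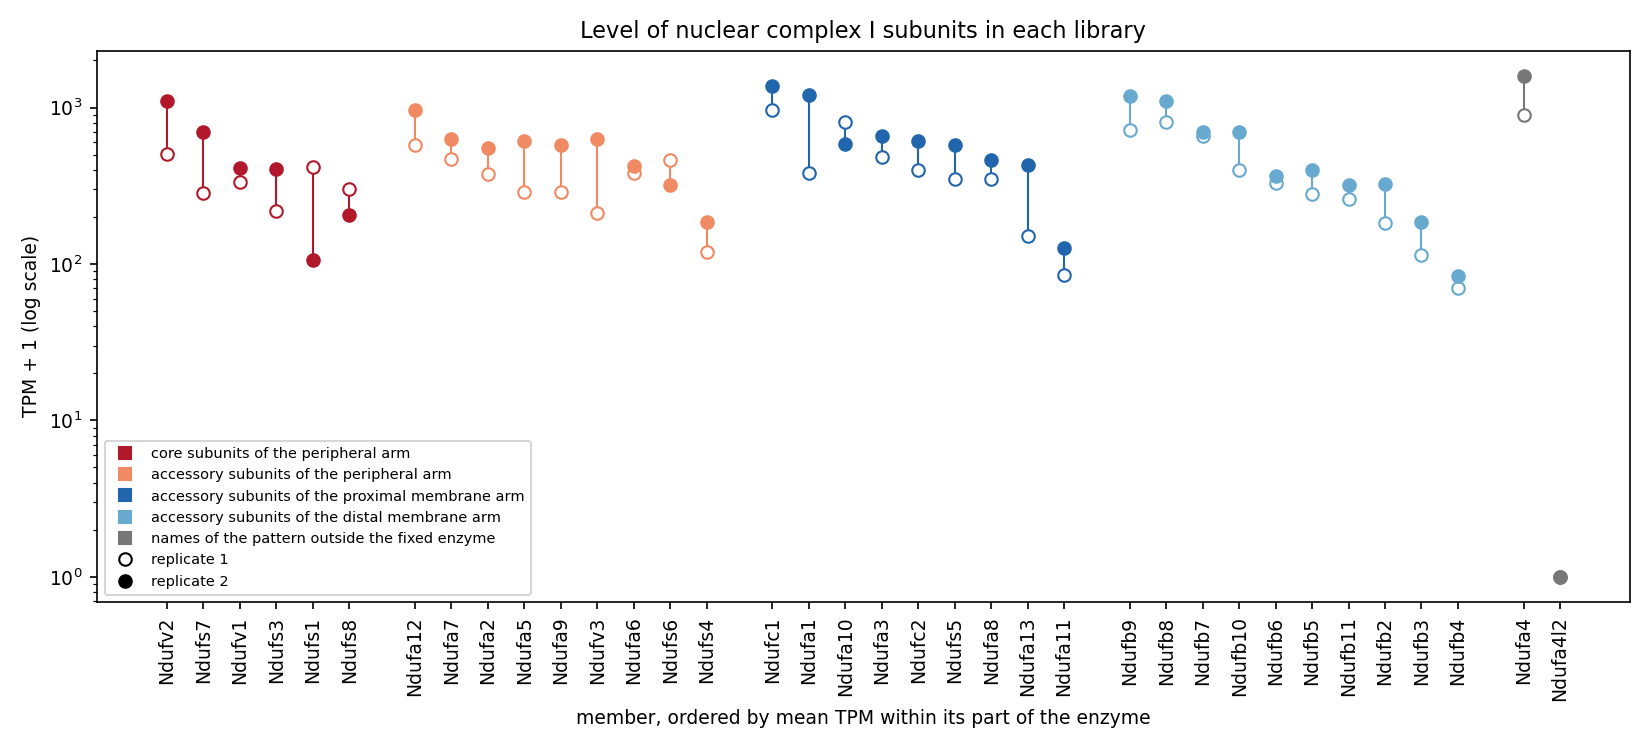
TPM + 1 on a log axis for the members named in the text, grouped by place in the enzyme, with open circles for replicate 1, filled circles for replicate 2 and a line joining them. Most filled circles lie above the open ones, Ndufs1 is the widest exception with 418 TPM in replicate 1 and 105 in replicate 2, and Ndufa4l2 lies at 0 in both.

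Transcripts of the same gene can be told apart by their junctions, and the clearest case was Ndufv3, a small accessory subunit at the NADH-binding tip, known to exist in a short and a long form. The long form holds an extra coding exon, exon 3 of 4, of 1092 bases at chr17:31527310-31528401 on GRCm38. The 40 bases around each junction that separates the forms follow, on the plus strand, from the transcript sequences of GENCODE M21, with the exon after the junction in capitals.
Ndufv3 long form, exons 2 and 3: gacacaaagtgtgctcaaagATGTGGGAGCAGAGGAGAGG
Ndufv3 long form, exons 3 and 4: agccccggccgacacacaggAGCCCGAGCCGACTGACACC
Ndufv3 short form, exons 2 and 3: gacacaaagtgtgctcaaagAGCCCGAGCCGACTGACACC
The first and last of these share their left side, and the last 2 share their right side, so reads across the junctions separate the forms. Of the short form 211 TPM were measured in replicate 1 and 533 in replicate 2. Ndufv3's long form had 0 counts in replicate 1 and 4070 in replicate 2, where it stood at 90.6 TPM. It made up 14.5% of both forms in replicate 2, whereas the count of 0 in replicate 1, taken to allow up to 3 counts, allows a share of up to 0.0404% by counting error alone. Such limits do not cover molecules lost before amplification, and 45% of protein-coding genes with reads in either library had 0 counts in the other.

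Members are scattered through the genome rather than clustered. They lie on 15 chromosomes, and the closest pair, Ndufs8 and Ndufv1 on chromosome 19, are 94609 bases apart. NRF1, a transcription factor known for controlling nuclear genes of the respiratory chain, binds a GC-rich palindrome, and its core was searched as GCGCNTGCG on both strands in the 250 bases before the RefSeq start of each gene. A match was found in 8 of the 32 members with a RefSeq promoter on GRCm38.p6 (25%), against 8.37% of 16317 genes. Where a gene had several RefSeq starts, a match at any of them counted. The 16317 genes are all protein-coding genes with a promoter entry and were not matched to the members by level or base content. The windows of these 8 members are shown because they hold the letters searched, each 5′ to 3′ on the gene's strand with 1 match in capitals.
Ndufa5, chr6:24527697-24527725, minus strand: gtgtgagctgCGCAGGCGCaaatctacct
Ndufa8, chr2:36049350-36049378, minus strand: ctagagcagtGCGCTTGCGcgtcgctgga
Ndufa11, chr17:56717692-56717720, plus strand: cctgcactgcGCGCATGCGcgcacgcctt
Ndufa12, chr10:94198905-94198933, plus strand: ctccagctctGCGCCTGCGtagaacgacc
Ndufb4, chr16:37654540-37654568, minus strand: agaagcagtgCGCACGCGCagaatacgcg
Ndufb10, chr17:24724431-24724459, minus strand: ctgcccactaCGCAGGCGCagctgtcacc
Ndufs5, chr4:123718265-123718293, minus strand: ctgcttgctgCGCAGGCGCagacccgctg
Ndufs6, chr13:73328483-73328508, minus strand: cgactgctgtGCGCCTGCGccggcac
Matches on the 2 strands can overlap where the palindrome is complete, as in Ndufa11. The letters CCGGAAGT, bound by ETS factors, were in 0 of the 32 members and in 4.50% of genes, and CCAAT was in 10 of the 32 (31.2%) and in 39.2% of genes. A match is a description of these letters and not a site of binding. Ndufa2, Ndufa4l2, Ndufb9 and Ndufs1 were among the members with no promoter entry.

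Core subunits of the peripheral arm were close in level in replicate 1 and far apart in replicate 2. All 7 lay within 2-fold of their own median in replicate 1 but 3 of 7 did in replicate 2, and the SD of log2(TPM + 1) over them was 0.39 and 1.22, or 0.40 and 0.91 without Ndufs1. Ndufv1, which binds NADH and the flavin cofactor, stood at 336 TPM in replicate 1 and 407 in replicate 2. Coding transcripts held 58.3% of Ndufv1's TPM in replicate 1 and 96.9% in replicate 2. Its partner Ndufv2, which carries an iron-sulfur cluster, stood at 507 and 1103. Ndufs1, the largest core subunit and the carrier of several clusters, went the other way, with 418 in replicate 1 and 105 in replicate 2, a mean of 261 ± 221 (SD, n = 2). It held place 12 of 37 by level in replicate 1 and place 35 in replicate 2. Ndufs7, which lies at the quinone site and holds the last cluster of the chain, stood at 283 and 701. Coding transcripts held 69.9% and 99.2% of its TPM. Ndufs8, the carrier of a pair of clusters between Ndufs1 and Ndufs7, was higher in replicate 1, at 299 against 203, and in replicate 2 it lay just outside the 2-fold limit. Ndufs3, a scaffold of early assembly, stood at 217 and 402. Ndufs7, Ndufv2 and Ndufs3 were thus higher in replicate 2 by 2.48-fold, 2.18-fold and 1.85-fold, while Ndufs1 was higher in replicate 1 by 3.98-fold.

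Accessory subunits of the peripheral arm, 9 genes, lay close together in both libraries, with 8 of 9 within 2-fold of their median in each. Ndufa12, which takes its place late in assembly, was highest at 573 TPM in replicate 1 and 961 in replicate 2. Ndufa7 stood at 465 and 629, and Ndufa2, which has a thioredoxin-like fold, at 375 and 548. Ndufa6, a binder of the acyl carrier protein, was nearly level at 380.3 and 425. Ndufa5 stood at 289 and 613, and Ndufa9, which holds a nucleotide cofactor near the quinone site, at 287 and 575. Ndufv3 stood at 212 and 624, its 2 forms together. These last 3 were more than 2-fold higher in replicate 2. Ndufs6, a zinc-binding subunit, was the 1 gene of the group higher in replicate 1, at 462 against 319. Its coding transcript was nearly level, at 302 TPM in replicate 1 and 318 in replicate 2. A transcript annotated for nonsense-mediated decay stood at 161 and 0.99. The lowest gene of the group was Ndufs4, a late-assembled subunit whose loss causes Leigh-like disease, at 119 and 185.

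Subunits of the proximal membrane arm, also 9 genes, held both some of the highest and some of the lowest levels. Ndufc1, a small single-pass membrane protein, stood at 965 TPM in replicate 1 and 1379 in replicate 2, first among the 37 members in replicate 1. Coding transcripts held 50.1% and 55.2% of its TPM, and a retained-intron transcript of 311 bases held 37.6% and 31.7%. Ndufa1, encoded on the X chromosome and needed for assembly of the membrane arm, stood at 382 and 1201, the largest difference toward replicate 2 of any member (3.14-fold). Ndufa10, related to nucleoside kinases, was higher in replicate 1, at 806 against 585. Between these lay Ndufa3 at 481 and 658, Ndufc2 at 400 and 609, and Ndufa8 and Ndufs5, which sit on the intermembrane side and carry paired cysteines, at 346 and 462 and at 348 and 575. Ndufa13, also called GRIM-19, stood at 151 and 425. Ndufa11, which contacts other complexes within respiratory supercomplexes, was the lowest of the group at 84.3 and 126. Its 1 quantified transcript has 2661 bases, the longest length of any member, while its exons in GENCODE M21 cover 1092 bases. Its counts, 5270 and 10118, were near those of Ndufa8, 6441 and 11002. The part of this length in its low TPM was not tested.

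Distal membrane arm subunits differed between the libraries in 1 direction and by similar amounts. All 10 analysed were higher in replicate 2, none by 2-fold or more, and the SD of their log2 ratios was 0.28. It was 0.60 for the accessory subunits of the peripheral arm, 0.62 for the proximal membrane arm and 1.25 for the core subunits, or 0.76 without Ndufs1. The direction was not particular to the distal arm. Relative to the median gene, 8 of 9, 8 of 9 and 5 of 7 in these groups were also higher in replicate 2. So were 39 of 43 nuclear subunits of complexes II to V, against 50% of protein-coding genes and 53.3% in the members' range of mean TPM. Ndufb9, a binder of the acyl carrier protein, and Ndufb8, a usual marker of the assembled enzyme, led at 721 and 1192 TPM and at 807 and 1094. Ndufb7, on the intermembrane side, was nearly level at 654 and 696, and so was Ndufb6 at 328 and 362. Ndufb10 stood at 397 and 699, Ndufb5 at 280 and 395, and Ndufb11, encoded on the X chromosome, at 258 and 318. Ndufb5 had 3609 counts in replicate 1 and 9632 in replicate 2, not scaled for depth. Its length was taken as 628 and 879 bases, so its TPM depends on how reads were assigned to its transcripts. The lower genes were Ndufb2 at 181 and 325, Ndufb3 at 113 and 185, and Ndufb4 at 69.1 and 83.3. These 3 were among the 10 lowest members in both libraries, and Ndufb1 is not analysed here.

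Ndufb4 is uncertain because a processed pseudogene carries a copy of it. Ndufb4c, at chr15:73809507-73809896 on GRCm38 and 390 bases long, had 3452 counts in replicate 1 and 5313 in replicate 2, against 958 and 1444 for Ndufb4. All 291 of its 100-base windows are also in transcripts of Ndufb4, so the deposited counts divide reads that such windows cannot assign. The deposited posterior SD of that division was 23.3 counts in replicate 1 and 26.6 in replicate 2 for each gene. Both rows summed to 555 and 668 TPM, of which Ndufb4c held 486 and 584. TPM divides reads by length, and Ndufb4c has 390 bases against 667 for Ndufb4 in replicate 1. The summed TPM is therefore not a level of Ndufb4 and cannot be set against the members' median. Ndufb4 alone was the lowest member detected in both.

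Ndufa4 and Ndufa4l2 carry the family name but are not counted as fixed parts of complex I. Ndufa4, now placed in cytochrome c oxidase, was the member with the highest mean, at 891 TPM in replicate 1 and 1595 in replicate 2. Ndufa4l2, its relative known to be induced by low oxygen, had 0 counts in both libraries, which allows up to 0.143 TPM in replicate 1 and 0.112 in replicate 2 by counting error alone. It was the 1 member not found.

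Levels of the members differed severalfold around a common middle. From the lowest detected member to the highest the range was 14.0-fold in replicate 1 and 19.2-fold in replicate 2. Within 2-fold of the members' median lay 26 of 37 in each library (70.3%), and 23 were within it in both. In the same range of mean TPM, 60.4% of protein-coding genes in replicate 1 and 58.2% in replicate 2 lay within 2-fold of their own median. The SD of log2(TPM + 1) over members was 1.64 in replicate 1 and 1.78 in replicate 2. Without Ndufa4l2, a choice made after its values were seen, it was 0.90 and 1.03. The order of members was partly kept, with Pearson r = 0.756 and Spearman rho = 0.698 of log2 TPM over 36 genes that share both libraries, and r = 0.839 without Ndufs1. Of the 10 highest members in each library 6 were the same genes, and likewise 6 of the 10 lowest. Longer members tended to have lower TPM (r = −0.45 across members, between log2 length and log2 mean TPM). Length is also the divisor within TPM, so it enters both sides of this r. The longest length used was the 2661 bases of Ndufa11.

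**Figure D2:**
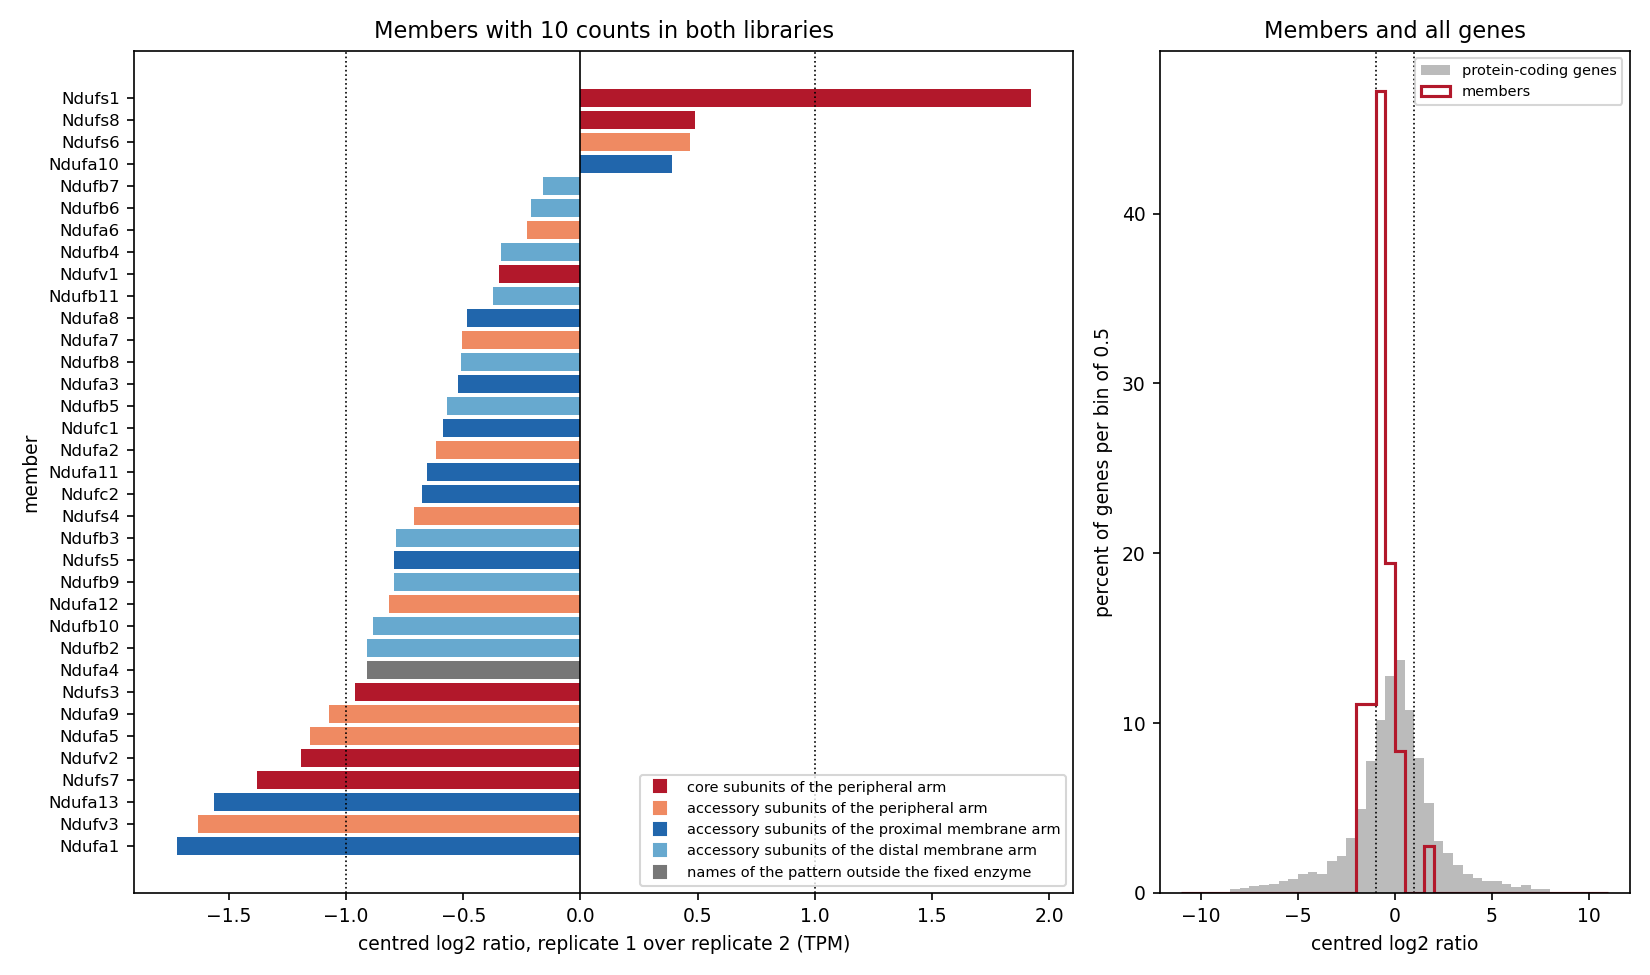
Left, bars give the log2 ratio of replicate 1 over replicate 2 in TPM for the members named in the text with at least 10 counts in both libraries, centred on the median protein-coding gene and coloured by place in the enzyme, with dotted lines at 2-fold. Right, the same ratio as percent of genes per bin of 0.5 for all 36 such members (red line) and for 4331 protein-coding genes (grey); 32 of 36 members lie below 0 and the members' distribution is the narrower one.

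Relative to the median gene, most members were higher in replicate 2. The log2 ratio of replicate 1 over replicate 2 was centred on the median of 4331 protein-coding genes with at least 10 counts in both, and its median over 36 members was −0.67. It was below 0 for 32 of 36 members, against 50% of all these genes and 53.3% of those in the members' range of mean TPM, the range 76.2 to 1243. A ratio of −1 or lower, 2-fold toward replicate 2, was reached by 8 members, among them Ndufa1, Ndufv3, Ndufa13, Ndufs7, Ndufv2, Ndufa5 and Ndufa9, against 27% of all genes and 20.1% in the range. That share, 8 of 36, is near the background, so it does not set the members apart. A ratio of 1 or higher was reached by 1 member, Ndufs1, against 25.5% of all genes and 16.6% in the range. Ndufa9 at −1.07 lay just past the limit and Ndufs3 at −0.96 just short of it. Over members the SD of the ratio was 0.69 (0.54 without Ndufs1), against 2.33 over all these genes and 1.40 in the range. Genes in the range had a median of 157 TPM in replicate 1 and 158 in replicate 2, below the members' 347 and 575. They are therefore not matched to the members by level. For scale, 23 spike-in RNAs with a mean count over 1000 had an SD of 0.72.

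Ndufs1 carried the widest departure with many reads behind it. It had 19961 expected counts in replicate 1 and 7482 in replicate 2, while the lowest detected member had 958, so counting error was at most 3.23% of a member's count. Its full-length coding transcript of 2661 bases had 169 TPM in replicate 1 and 70.0 in replicate 2. The coding transcript of 2590 bases had 130 and 21.1, so both forms were lower in replicate 2. Exons of Ndufs1 overlap Eef1b2 on the opposite strand by 9 bases, and Eef1b2 had 14601 and 10188 counts. Amplified reads do not count starting molecules, so this error covers counting alone.

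**Figure D3:**
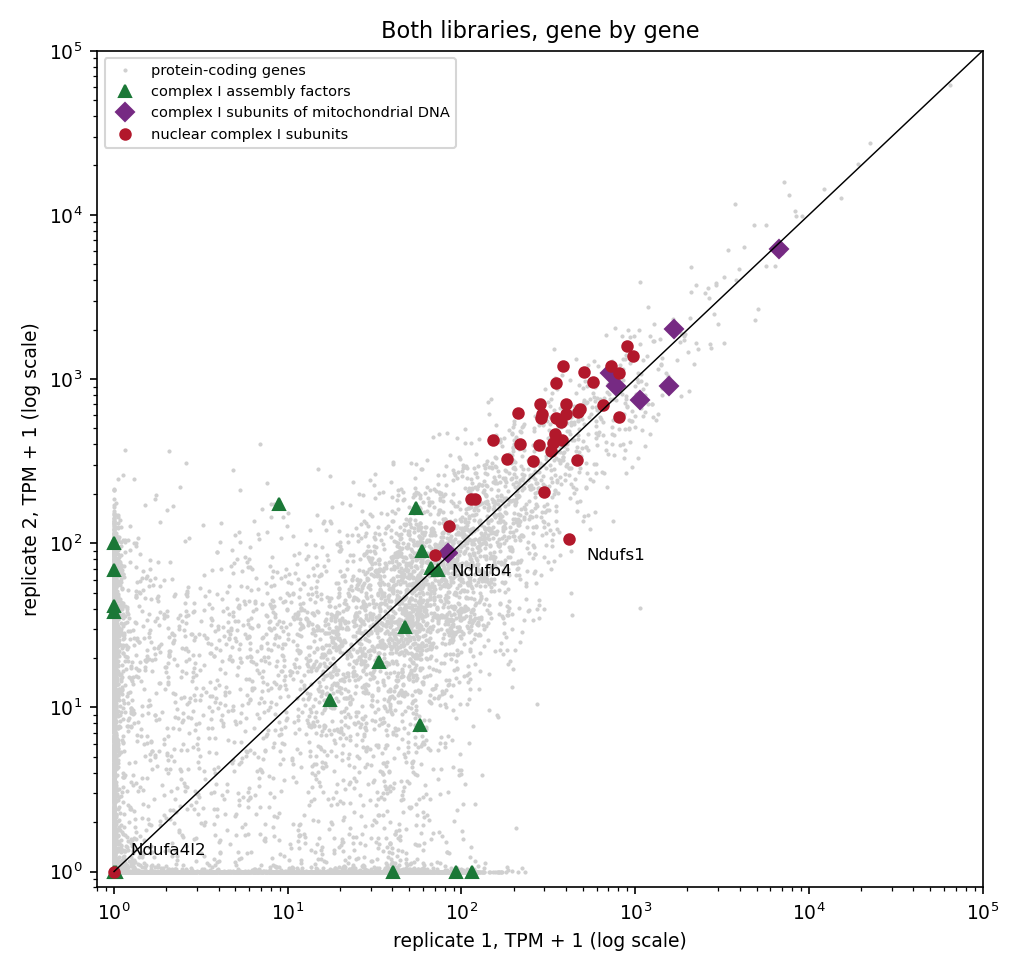
TPM + 1 in replicate 1 (x axis) against replicate 2 (y axis), both on log axes, for protein-coding genes with reads (grey), members (red circles), complex I subunits encoded in mitochondrial DNA (purple diamonds) and assembly factors (green triangles), with a line of equal level. Members with reads lie mostly above the line, and 8 of 17 assembly factors with reads lie on an axis, at 0 counts in 1 library, against 45% of all protein-coding genes with reads.

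Complex I subunits encoded in mitochondrial DNA lay on both sides of the median gene. The 7 genes, which encode the proton-pumping core, summed to 12615 TPM in replicate 1 and 11962 in replicate 2, with a median centred ratio of −0.13 and 4 of 7 below 0. mt-Nd1, at the junction of the arms, was highest at 6749 and 6226, mt-Nd2 stood at 1562 and 902, and mt-Nd4l was lowest at 82.8 and 86.3. The mitochondrial sum was 0.887 of the members' sum in replicate 1 and 0.551 in replicate 2. Reads of mt-Nd3 and mt-Nd4l were assigned with wide uncertainty, a posterior SD of 415 counts on 4355 for mt-Nd3 in replicate 1. For mt-Nd4l it was 176 counts on 400.1 in replicate 1 and 334 on 534 in replicate 2, so its level is only roughly known. Ndufab1, the acyl carrier subunit, was level at 836 and 816 TPM.

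Assembly factors, which build the enzyme but are not part of it, stood at lower levels than the members. Of 18 with a row, 9 were detected in both libraries, against 18.2% of all protein-coding genes, 8 had 0 counts in 1 library and Ndufaf7, a mitochondrial methyltransferase, had 0 in both. The 8 are of 17 with reads, near the 45% of all protein-coding genes with reads. Their median was 35.8 TPM in replicate 1 and 33.5 in replicate 2. The highest by mean were Ndufaf8 at 54.1 and 163.7, Tmem70, which also serves ATP synthase, at 7.96 and 172, and Ecsit at 58.2 and 88.6. Ndufaf1, Ndufaf2, Tmem186 and Nubpl had 0 counts in replicate 2, but Nubpl had only 2 counts in replicate 1. Ndufaf5, Ndufaf6, Tmem126b and Dmac2 had 0 in replicate 1.

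**Figure D4:**
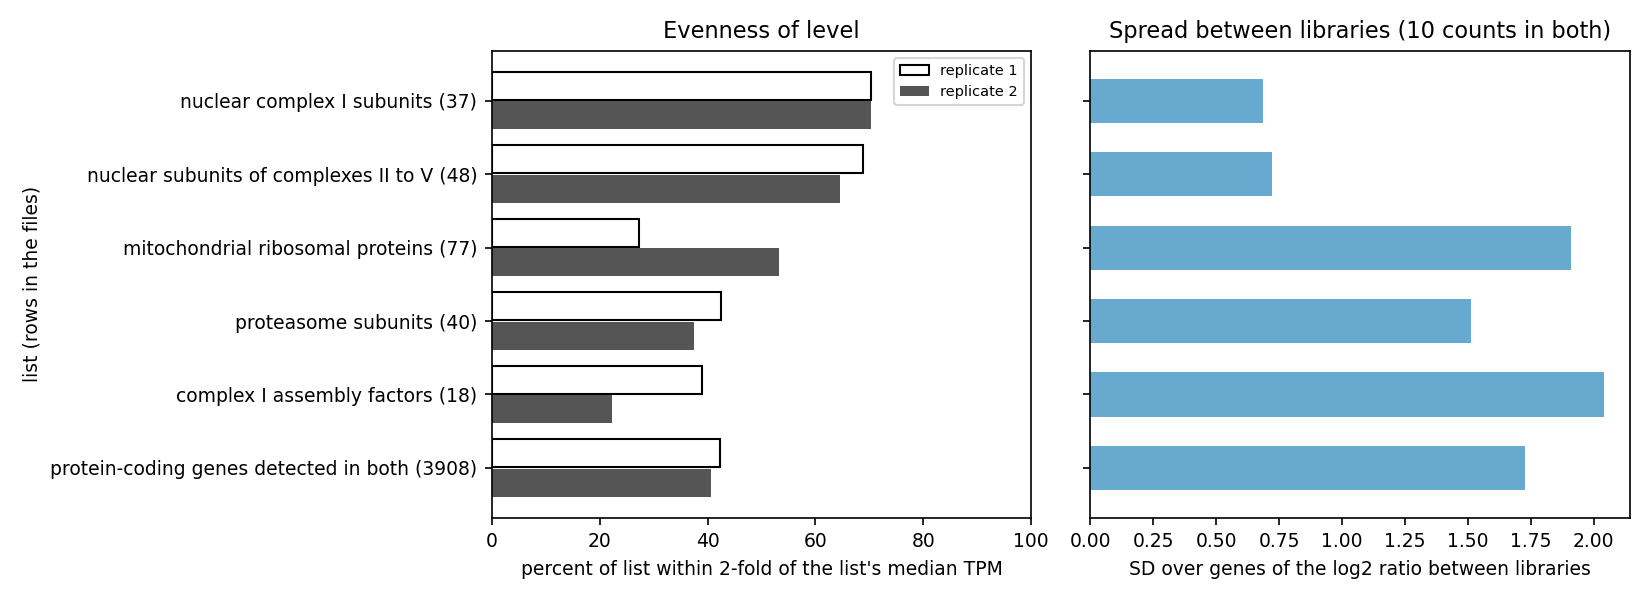
Left, percent of each list within 2-fold of the list's own median TPM in replicate 1 (open bars) and replicate 2 (filled bars), with the number of rows in brackets. Right, SD over genes of the log2 ratio between libraries for genes with at least 10 counts in both; of the 6 lists plotted, members and nuclear subunits of complexes II to V have the smallest SDs, 0.69 and 0.72.

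Nuclear subunits of complexes II to V gave a median ratio and a spread close to those of the members. Of 48 rows, 43 were detected in both libraries, their median centred ratio was −0.67 with 39 of 43 below 0, and the SD of the ratio was 0.72. Within 2-fold of their median lay 68.8% in replicate 1 and 64.6% in replicate 2. Mitochondrial ribosomal proteins, 77 rows, had a median ratio of −0.09 and an SD of 1.91, and 50 were found in both. Proteasome subunits, 40 rows, had a median ratio of −0.33, an SD of 1.51 and 33 found in both. Medians of these lists were 549 and 931 TPM for complexes II to V, 43.7 and 64.9 for the ribosomal proteins and 129 and 150.2 for the proteasome, against 347 and 575 for the members, so level differs along with the spread.

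Markers of cell types also differed between the libraries. Skeletal muscle markers were found 8 of 8 in both libraries, with a summed level of 99394 TPM in replicate 1 and 109118 in replicate 2. Their median centred ratio was −0.45. It was below 0 for 6 of the 8, with Mylpf at 7224 and 15814 TPM. Ckm at 15329 and 12637 and Myh3 at 476 and 358 went the other way. Summed markers of 4 other cell types were higher in replicate 1, although single markers went both ways. Adipocyte markers, 5 of 8 found in both, summed to 2911 and 1080 TPM, of which Cfd held 1071 and 39.3, while Plin1 stood at 0.19 and 19.3. Ucp1, a marker of brown fat, had 0 counts in both. Cidea, another marker of brown fat, stood at 99.7 TPM in replicate 1 and 0 in replicate 2. Fibroblast markers, 6 of 6, summed to 7267 and 4784, with Col1a1 at 1829 and 784 and Postn level at 1084 and 1079. Endothelial markers, 5 of 6, summed to 522 and 255, with Pecam1 at 182 and 0.06 and Tie1 at 5.03 and 21.6. Macrophage markers, 4 of 6 with Adgre1 at 0 in both, summed to 633 and 271, with C1qb at 279.6 and 44.3 and Mrc1 at 7.23 and 43.3. Erythroid markers, 4 of 6, were near level at 3292 and 3629. Of the heart markers only Myl2, which slow muscle also expresses, was found, and Nppa and Nppb had 0 counts in both. The spike-in share of TPM was 9.44% in replicate 1 and 4.54% in replicate 2. The part of cell make-up or of spike-in share in the members' shift was not tested.

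Most members kept the same leading transcript in both libraries. Of 36 with reads, 13 have 1 transcript in the files and 23 have several, and 22 of these 23 had the same leading transcript. The exception was Ndufb5, where the transcript of 625 bases led in replicate 1 with 54.0% of the gene's TPM and had 30.1% in replicate 2. The transcript of 1079 bases had 5.10% in replicate 1 and 57.5% in replicate 2. Exons of Ndufb5 and Mrpl47, on the opposite strand, overlap by 616 bases, and its part in this difference was not tested. In 3 members the leading transcript was annotated as non-coding in both libraries, a processed transcript for Ndufa5 and retained-intron transcripts for Ndufa10 and Ndufb4. Coding transcripts held 8.71% and 10.1% of TPM for Ndufa5, 16.8% and 19.3% for Ndufa10 and 40.0% and 37.4% for Ndufb4. Transcript values are estimates, and short transcripts gain in TPM from few reads.

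**Figure D5:**
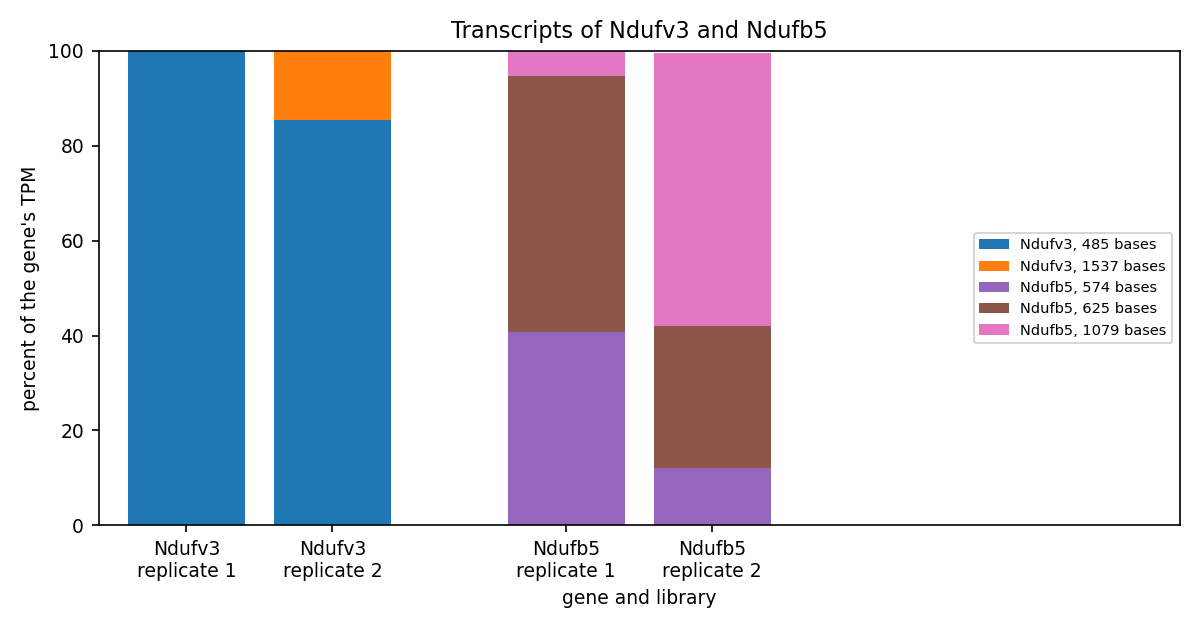
Percent of the gene's TPM (y axis) held by each transcript above 1% in a library, for Ndufv3 and Ndufb5 in replicates 1 and 2, with transcripts named by length in bases. Ndufv3's 1537-base long form appears in replicate 2 alone, and the 1079-base transcript of Ndufb5 takes 57.5% there against 5.10% in replicate 1.

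Several other members share sequence with a second gene. Ndufa13 and Ndufb6 share 24.0% of their 100-base windows with Tssk6, which had 0 counts in both libraries, and with Smim27, which had 1.09 and 194 counts against 4487 and 6328 for Ndufb6. Pseudogenes that share windows with Ndufs5, Ndufa12 and Ndufs3 had at most 159 counts, against at least 3618 for these members. Some partners had many reads of their own. Mrpl47 had 1058 and 3903 counts, against 3609 and 9632 for Ndufb5. Rbm10, which shares 2.22% of the windows of Ndufb11, had 3595 and 494, against 5094 and 8037 for Ndufb11. Kbtbd4, whose exons overlap those of Ndufs3 by 88 bases on the opposite strand, had 3197 and 0, against 4924 and 11350 for Ndufs3. How many reads of these pairs were assigned to the wrong gene was not tested.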

How the data were processed

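RNA above a size of 200 was extracted with mirVana and spike-in RNAs were added, per the labels' protocols. Each of the 2 libraries has gene and transcript tables in the form RSEM writes, per the file headers. Expected counts were deposited unscaled and need not be whole. TPM, scaled by the authors to the same sum in both files with spike-ins among the rows, was the main unit. FPKM as deposited served as an alternative, and the deposited posterior SD describes how surely reads were assigned. Reads were assigned to mm10 with GENCODE M4, per the descriptions deposited with the files. Aligner and strand use were not given in the sources used here. Depth came to 32103374 expected counts for replicate 1 and 38977618 for replicate 2. Rows that are neither gene nor spike-in held 0% and 0.000467% of these and were left out.

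Symbols came from GENCODE M21 (GRCm38, the assembly also called mm10) by identifier without version, for 42462 of 43346 genes, and promoters from RefSeq on GRCm38.p6. By the naming rule each member is named with its TPM in both libraries, except 1 that is not reported here by name and stays in the counts, sums and medians. Assembly factors are given by counts, with the 3 highest by mean TPM and those with 0 counts named. Members and lists were chosen with earlier results of these data known, and places in the enzyme follow textbook knowledge. Ratios need at least 10 counts in both libraries and evenness uses log2(TPM + 1). Shared windows are runs of 100 bases in transcripts of 2 genes on either strand. Alternatives were detection limits, pseudocount, unit, filter, membership, scaling and leaving out each library. edgeR 4.0.16 in R 4.3.3 computed only TMM factors. Python 3.11.15, numpy 2.4.6, pandas 2.3.3, scipy 1.17.1 and matplotlib 3.10.9 served for the rest, and the ratio calculation was tested on simulated data.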

Additional observations from a re-analysis of the deposited data

How the results depend on the processing

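Of 50 alternative values for 7 results, 41 stayed within the tolerance, 9 moved and none changed sign. The tolerance was 0.1 for the median log2 ratio, 1.5 times for counts of members and otherwise 1 SD between the libraries, which is wide for the sum and median and which leaving out 1 of 2 libraries cannot exceed. The SD of log2(TPM + 1) over members, 1.71 as the mean of both libraries, rests on Ndufa4l2 at 0: it was 0.94 without Ndufa4 and Ndufa4l2, 0.97 with members of at least 10 counts in both, 0.97 without Ndufa4l2 alone (chosen after seeing the data), 2.19 with a pseudocount of 0.1 and 1.56 with counts scaled to library size and not to length. The members' median log2 ratio, −0.67, was −1.58 when centred on spike-ins, −0.52 with at least 5 counts in either library and −0.77 from expected counts. Centring on spike-ins moved the median of all genes to −0.91, put 32 members in place of 8 past 2-fold toward replicate 2, and put 47.8% of all genes there. Leaving out either library gave a summed level of 14230 to 21714 TPM, a median of 347 to 575 and an SD of 1.64 to 1.78. No paired analysis was possible because there is 1 group and no result comes from a test. Values without Ndufs1 were also chosen after seeing the data. With 1 library on each side, a difference between libraries has no replicate check.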
